A study of Mus musculus with 21 samples.

Results

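The 42 genes described here encode proteins that act while a cell divides its chromosomes and then its cytoplasm. They were chosen by function, as a list of gene symbols, from the 54532 genes of the count table. All 42 were matched to a gene identifier, and all 42 passed the filter on low counts that left 22935 genes for testing. During mitosis condensins compact the chromosomes, kinetochores attach them to spindle microtubules, and a checkpoint delays the separation of sister chromatids until every kinetochore is attached. The anaphase promoting complex then releases separase, and the central spindle directs the ring that cuts the cell apart. Most of these genes are transcribed in late S phase, G2 and mitosis, so in bulk RNA they are widely used as a readout of cycling cells, and macrophages are known to divide locally in the adipose tissue of obese mice. In bulk samples, fewer dividing cells and less RNA per dividing cell cannot be told apart.

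The libraries came from adipose tissue of male C57BL/6 mice that had eaten a high fat diet (obese) or a normal diet (lean) for 16 weeks. Collagenase-digested tissue was sorted by flow cytometry into 4 kinds of cells, and RNA-seq was run on 7 groups of 3 libraries, 21 in all. Macrophages low in MHC class II (MHCII-low), macrophages positive for MHC class II and negative for CD11c (CD11c-negative) and monocyte-derived cells came from both diets. Macrophages positive for MHC class II and CD11c (CD11c-positive) came from obese mice only, so they have no lean counterpart. No group carried a transgene or a deletion in the labels. The labels do not say that the 3 libraries of a group came from separate animals, so p-values measure the spread between these samples, which may be technical.

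Library totals ran from 11245851 to 35568948 counts, and the lowest raw count of a listed gene in any library was 8, for Spc24 in lean MHCII-low replicate 1. Totals did not overlap between lean (20783760 to 25914583) and obese (26648301 to 35568948) macrophage libraries. At an equal depth of 11245851 counts, 26084 to 32734 genes were detected in the lean and 23557 to 24714 in the obese macrophage libraries. The part of this in the diet differences was not tested. Levels are counts-per-million values (CPM) scaled by edgeR's TMM factors, printed in the order of replicates 1, 2 and 3. The summed level of 10 macrophage markers was 7581 to 12046 CPM of the library total in the macrophage libraries and 1528 to 3647 CPM in the monocyte-derived libraries, where 12 dendritic cell markers summed to 573 to 1780.0 CPM against 73.4 to 435 CPM in the macrophages. Lean monocyte-derived libraries stood apart: their listed genes had a median coefficient of variation of 21.1%, against 10.7% to 17.9% in the other groups, and replicate 3 had 67.1% of its counts on protein-coding genes. The 1965 genes of olfactory and vomeronasal receptors were summed as a measure of the background of unspecific reads. Together they held 334 to 1228 CPM in lean monocyte-derived libraries, 158 to 249 CPM in lean MHCII-low libraries and 24.9 to 56.1 CPM in the obese macrophage libraries. The part of this background in the differences below was not tested. No source used here gives the strand setting of the counting, and in 9 of the 42 genes an exon overlaps a gene of the opposite strand, over 29.3% of exon bases for Kif20a, 22.8% for Ube2c and 2.84% to 15.1% for Ncapg, Cdca8, Cdc20, Plk1, Nusap1, Kif4 and Prc1.

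Because the listed genes moved largely together, their promoters are shown first. RefSeq windows of 300 bases (250 before and 50 after the start site, assembly GRCm38.p6) were found for 35 of the 42 genes and not for Smc4, Spc24, Aurkb, Incenp, Tpx2, Kif20a and Pbk. On either strand, the letters TTTGAA or TTCGAA, known as the cell cycle genes homology region (CHR), occurred in 27 of the 35 windows (77.1%). They occurred in 19.4% of all 27025 windows and in 5 of 24 windows (20.8%) of DNA replication genes. The letters CCAAT, on either strand, were in 26 of 35 windows (74.3%), against 37.9% of all windows and 70.8% of the replication windows. Both sets of letters occurred together in 68.6% of the listed genes' windows and in 7.7% of all windows. Letters of E2F sites (TTTCCCGC, TTTCGCGC, TTTGCCGC or TTTGGCGC, either strand) were in 1 of 35 windows (2.86%), against 2.32% of all windows and 11 of 24 replication windows (45.8%). Matches of different motifs can share no more than 1 base, and a match of letters is a description, not a binding site.

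The 6 promoters below are printed because of the diet differences of their genes or, for Top2a, its level. Birc5 and Hmmr had the largest diet differences in MHCII-low macrophages, and Top2a is among the most abundant. In the fit of all 7 groups, Cdc20 was among the genes that passed the test for diet in all 3 cell types. Kif23 and Espl1, like Cenpa, passed it in none. Each line runs 5′ to 3′ along the gene, 130 bases before and 20 after the start site, with CHR and CCAAT letters of either strand in capitals.
Birc5 (chr11:117849107-117849256, plus strand): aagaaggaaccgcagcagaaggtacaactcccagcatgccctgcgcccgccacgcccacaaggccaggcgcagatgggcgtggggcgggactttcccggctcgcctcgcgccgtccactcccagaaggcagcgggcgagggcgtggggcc
Hmmr (chr11:40733418-40733567, minus strand): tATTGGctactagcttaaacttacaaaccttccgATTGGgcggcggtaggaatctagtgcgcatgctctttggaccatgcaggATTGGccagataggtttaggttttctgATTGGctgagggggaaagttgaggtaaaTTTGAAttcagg
Top2a (chr11:99024170-99024319, minus strand): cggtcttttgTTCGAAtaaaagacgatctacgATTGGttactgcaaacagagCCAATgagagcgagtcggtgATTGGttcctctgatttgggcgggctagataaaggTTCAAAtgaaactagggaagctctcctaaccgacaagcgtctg
Cdc20 (chr4:118437324-118437473, minus strand): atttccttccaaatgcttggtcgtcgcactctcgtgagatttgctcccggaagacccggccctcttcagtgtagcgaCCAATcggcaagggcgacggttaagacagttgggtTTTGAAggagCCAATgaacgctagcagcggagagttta
Kif23 (chr9:61946780-61946929, minus strand): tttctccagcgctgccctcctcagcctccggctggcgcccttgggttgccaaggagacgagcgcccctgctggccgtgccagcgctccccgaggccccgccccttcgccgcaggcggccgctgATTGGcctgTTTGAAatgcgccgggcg
Espl1 (chr15:102296163-102296312, plus strand): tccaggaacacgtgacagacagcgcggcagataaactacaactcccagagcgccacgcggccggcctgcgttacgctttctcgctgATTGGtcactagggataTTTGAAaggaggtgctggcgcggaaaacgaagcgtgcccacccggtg
The printed stretch of Hmmr holds 4 CCAAT boxes and 1 CHR, that of Top2a 3 and 2, that of Cdc20 2 and 1, and those of Kif23 and Espl1 1 of each, while that of Birc5 holds neither. The median log2 fold change of obese over lean MHCII-low macrophages was 1.74 over the 27 genes with CHR letters and 1.94 over the 8 without. In CD11c-negative macrophages the medians were 1.21 and 1.32.

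The summed level of the 42 genes differed between the groups. It was 378, 377 and 406 CPM in lean MHCII-low and 479.6, 542 and 424 CPM in lean CD11c-negative macrophages. In obese mice it was 1097, 1041 and 976 CPM in MHCII-low, 1147, 970.1 and 892 CPM in CD11c-negative and 1309, 1528 and 1339 CPM in CD11c-positive macrophages. Monocyte-derived cells lay between the lean and obese macrophages, at 761, 651 and 648 CPM in lean and 825, 714 and 801 CPM in obese mice, and those 2 groups overlapped. All obese macrophage libraries were above all lean macrophage and all monocyte-derived libraries, and the CD11c-positive libraries were above all others. Mki67, the chromosome-coating protein stained as Ki-67 to mark cycling cells, made up 19.0% to 34.4% of the sum. Without it the sums were 288 to 309 CPM in lean and 692 to 794 CPM in obese MHCII-low macrophages.

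**Figure D1:**
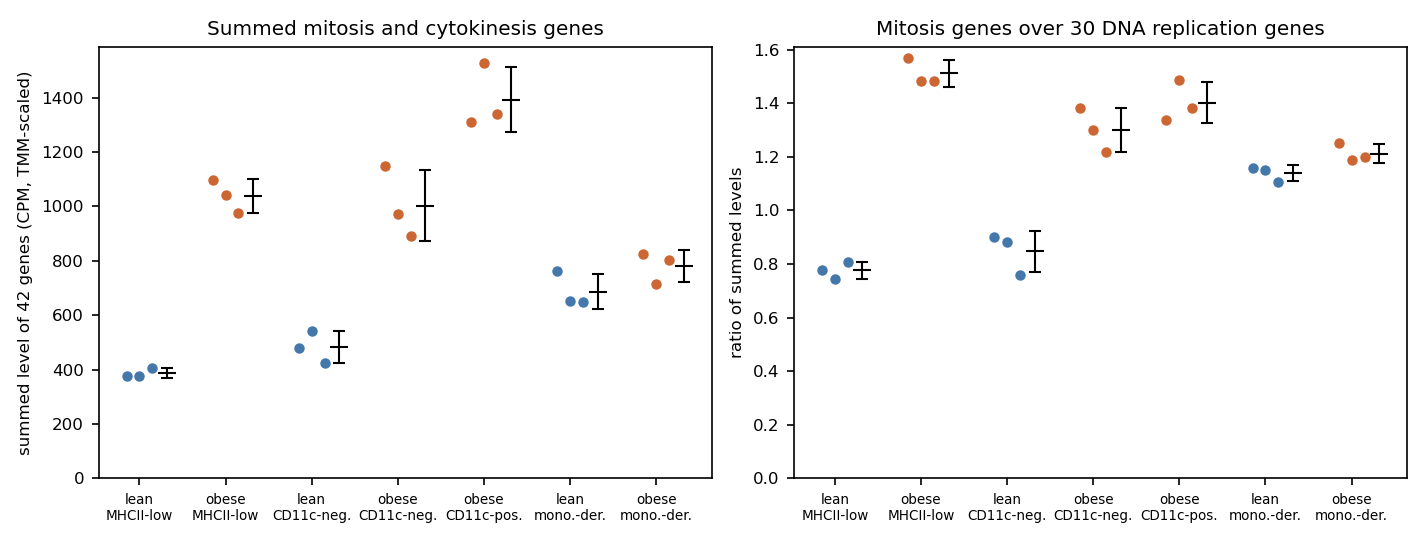
Left, summed level of the 42 mitosis and cytokinesis genes in TMM-scaled CPM; right, that sum divided by the summed level of 30 DNA replication genes. Points are libraries (blue lean, orange obese) and black marks are the mean ± SD of 3 libraries in each group; the lean macrophage libraries lie at 377 to 542 CPM and the obese macrophage libraries at 892 to 1528 CPM.

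Per kilobase of exon, the levels of the genes differed widely within a group. In obese CD11c-positive macrophages Mki67 was highest at 41.03 CPM per kilobase of exon (RPKM, group mean), followed by Incenp at 16.3, Smc4 at 14.2 and Top2a at 13.2 RPKM, and Ttk was lowest at 0.842 RPKM. In lean MHCII-low macrophages Cenpa (8.95 RPKM) stood above Mki67 (8.55 RPKM), with Ttk again lowest at 0.211 RPKM. By group mean CPM, 38 of the 42 genes were highest in CD11c-positive macrophages. Cdc20, Espl1 and Kif23 were highest in obese MHCII-low macrophages, and Cenpa was highest in obese monocyte-derived cells. The lowest mean lay in lean MHCII-low macrophages for 29 genes, in lean monocyte-derived cells for 6 (Incenp, Ttk, Cdc20, Plk1, Prc1 and Anln) and in lean CD11c-negative macrophages for 5 (Ncapg, Ndc80, Nuf2, Kif2c and Kif20a), while Cenpa was lowest in CD11c-positive macrophages and Espl1 in obese monocyte-derived cells.

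**Figure D2:**
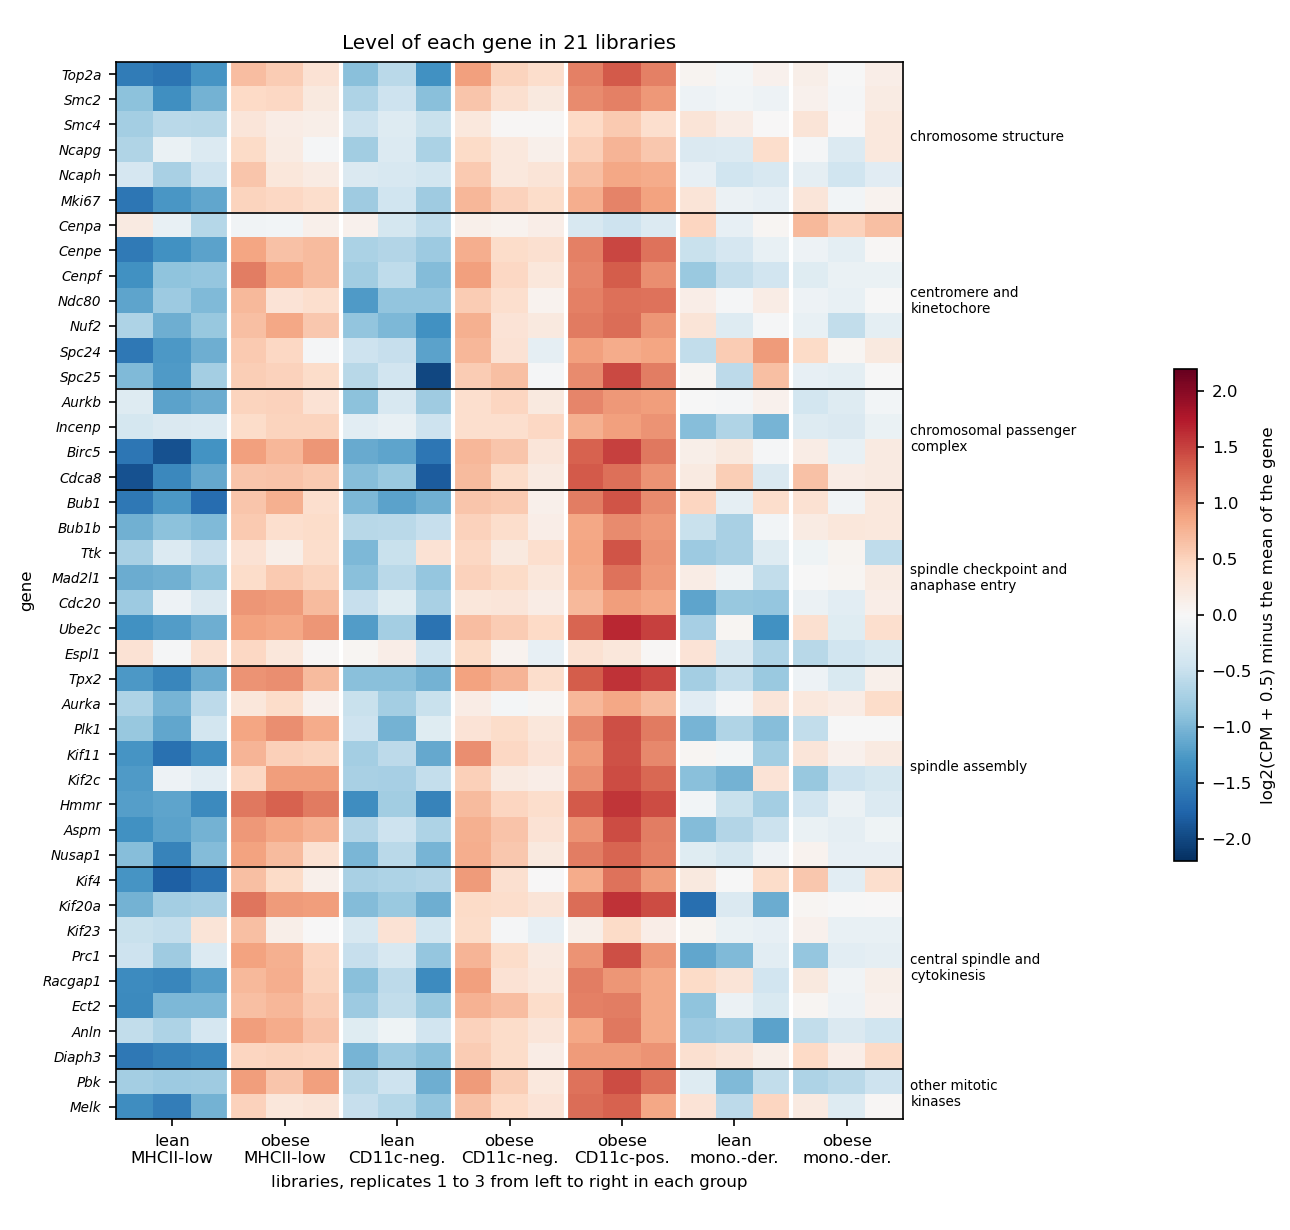
Each row is a gene, ordered by role, and each column a library, with replicates 1 to 3 from left to right in each of 7 groups; colour is log2(CPM + 0.5) minus the gene's mean over 21 libraries. Nearly all rows are blue in the lean macrophages and red in the obese macrophages, most of all in the CD11c-positive libraries, and Cenpa, Espl1 and Kif23 are the rows that depart from this.

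Obese and lean MHCII-low macrophages were compared to ask how the diet changed this population. Of the 42 genes, 39 were higher in obese mice at an adjusted p under 0.05 (called) and 0 were lower, where 16.8% of all tested genes were called higher and 13.8% lower. The median log2 fold change was 1.84, against −0.07 over all tested genes. The libraries of the 2 diets did not overlap for those 39 genes, with obese higher, as was true of 26.1% of all genes. Cenpa, Espl1 and Kif23 were the 3 genes not called. The counts stayed at 37 to 38 when any 1 library of the comparison was left out.

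All 6 genes of chromosome structure rose. Top2a, the topoisomerase that untangles sister chromatids, stood at 17.6, 16.6 and 20.9 CPM in the lean and 84.0, 76.8 and 65.1 CPM in the obese libraries, a log2 fold change of 2.03 (SE 0.17, adjusted p = 7.69e-08). The lowest obese library stood well above the highest lean one. Mki67 went from 71.9, 89.0 and 97.1 CPM to 304, 296 and 283 CPM, a log2 fold change of 1.77. The condensin genes had smaller values: the log2 fold change was 1.5 for Smc2 and 0.85 for Smc4, the ATPase pair that both condensins share, and 0.93 for Ncaph and 0.59 for Ncapg, subunits of condensin I.

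Of the 7 centromere and kinetochore genes, 6 rose. Cenpe, a kinesin that carries chromosomes to the spindle equator, stood at 5.11, 6.06 and 6.85 CPM in lean and 29.8, 25.3 and 26.3 CPM in obese libraries, a log2 fold change of 2.17 (SE 0.16, adjusted p = 3.24e-08). The 4 subunits of the Ndc80 complex, which grips the microtubule end, rose by 1.61 (Ndc80), 1.77 (Nuf2), 2.31 (Spc24) and 1.74 (Spc25) on the log2 scale. Cenpa, the histone H3 variant that marks the centromere, was the exception, at 67.4, 52.4 and 37.5 CPM in lean and 55.6, 56.4 and 63.5 CPM in obese libraries. Its lean libraries spanned the obese ones, and its log2 fold change was 0.16 (SE 0.18, adjusted p = 0.536).

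All 4 genes of the chromosomal passenger complex, which corrects faulty attachments, rose. Birc5, which encodes survivin, stood at 1.41, 1.02 and 1.81 CPM in lean and 10.3, 9.06 and 10.7 CPM in obese libraries. Its log2 fold change of 2.81 (SE 0.22, adjusted p = 6.76e-08) was the highest of the 42. Cdca8, which encodes borealin, had a log2 fold change of 2.32 and the kinase gene Aurkb one of 1.36. Incenp, the scaffold of the complex, began from a higher lean level of 28.6, 30.1 and 30.4 CPM and reached 49.8, 53.0 and 52.8 CPM, a log2 fold change of 0.80.

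Of the 7 genes of the checkpoint and of anaphase entry, 6 rose. Bub1, a checkpoint kinase at the kinetochore, stood at 1.28, 1.70 and 1.16 CPM in lean and 7.60, 8.56 and 6.32 CPM in obese libraries, a log2 fold change of 2.44 (SE 0.24, adjusted p = 6.13e-07). Log2 fold changes of the other checkpoint genes were 1.5 for Bub1b, 1.66 for Mad2l1 and 1.05 for the kinase gene Ttk. Cdc20, the activator of the anaphase promoting complex that the checkpoint holds back, rose by 1.42, and Ube2c, the conjugating enzyme of that complex, by 2.38. Espl1, the protease separase, stood at 23.1, 18.2 and 23.3 CPM in lean and 25.6, 22.1 and 18.7 CPM in obese libraries. The diets overlapped, with a log2 fold change of 0.04 (SE 0.21, adjusted p = 0.911) that became −0.04 with DESeq2 size factors and −0.03 with library totals alone.

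All 8 spindle assembly genes rose. Tpx2, which activates Aurora A kinase on the spindle, stood at 4.06, 3.54 and 4.65 CPM in lean and 21.1, 21.8 and 17.2 CPM in obese libraries, a log2 fold change of 2.29 (SE 0.17, adjusted p = 3.3e-08). Hmmr, a spindle-pole protein, stood at 2.33, 2.42 and 1.98 CPM and 14.2, 15.6 and 14.0 CPM, a log2 fold change of 2.70. The kinase genes Plk1 and Aurka had log2 fold changes of 1.97 and 1.16. Those of Kif11, the motor that pushes spindle poles apart, of Aspm at the poles and of Nusap1 on spindle microtubules were 2.12, 2.11 and 1.91, and Kif2c, a microtubule depolymerase, had 1.45.

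Of the 8 genes of the central spindle and cytokinesis, 7 rose. Diaph3, a formin that nucleates actin filaments, had the smallest p of the 42 genes. It stood at 4.52, 4.85 and 5.04 CPM in lean and 20.4, 20.6 and 20.3 CPM in obese libraries, a log2 fold change of 2.09 (SE 0.13, adjusted p = 1.02e-08), and its obese libraries agreed to a coefficient of variation of 0.745%. Centralspindlin, a complex of a kinesin and a GTPase-activating protein, had 1 subunit called and 1 not: Racgap1 rose by 2.10, from 5.93, 5.67 and 6.72 CPM to 26.9, 28.8 and 23.1 CPM. Kif23, its kinesin, stood at 12.9, 12.7 and 22.5 CPM in lean and 29.6, 20.2 and 18.5 CPM in obese libraries and was not called, with a log2 fold change of 0.51 (SE 0.23, adjusted p = 0.103). Lean replicate 3 was its high lean library, and without it the log2 fold change was 0.85 (adjusted p = 0.0173). Kif23 was also called without the filter on low counts, at 0.54 (adjusted p = 0.0327). Ect2, which activates RhoA at the cleavage site, had a log2 fold change of 1.92, Anln, a scaffold of the contractile ring, 1.36, and Prc1, which bundles central spindle microtubules, 1.29. The kinesins Kif4 and Kif20a rose by 2.21 and 2.02. Both remaining mitotic kinase genes rose, Pbk from 1.32, 1.26 and 1.29 CPM to 5.32, 4.17 and 5.26 CPM, a log2 fold change of 1.92 (SE 0.27, adjusted p = 3.16e-05), and Melk by 1.96.

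CD11c-negative macrophages were compared between diets in the same way. Of the 42 genes 38 were called higher in obese mice and 0 lower, where 16.8% of all tested genes were called higher and 15.6% lower. Their median log2 fold change was 1.29, against −0.10 over all tested genes, and the diets did not overlap, with obese higher, for 38 of the 42 and 25.1% of all genes. Cenpa, Ttk, Espl1 and Kif23 were not called. The count was 36 to 38 with any 1 library left out.

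Top2a stood at 27.2, 34.3 and 20.4 CPM in lean and 97.7, 72.9 and 68.2 CPM in obese CD11c-negative libraries, a log2 fold change of 1.54 (SE 0.16, adjusted p = 1.53e-06). Cenpe stood at 9.68, 10.1 and 8.96 CPM and 28.3, 21.4 and 20.7 CPM, a log2 fold change of 1.29 (SE 0.15, adjusted p = 4.03e-06). For Birc5 the levels were 2.17, 2.08 and 1.42 CPM and 9.03, 8.24 and 6.39 CPM, a log2 fold change of 2.05 (SE 0.21, adjusted p = 1.37e-06), again the highest of the 42. In each of these genes the lowest obese library was above the highest lean one. Bub1 went from 2.17, 1.85 and 2.06 CPM to 7.56, 7.42 and 5.25 CPM with a log2 fold change of 1.73 (SE 0.23, adjusted p = 1.56e-05). Tpx2 went from 5.25, 5.29 and 4.80 CPM to 19.8, 17.9 and 13.8 CPM with a log2 fold change of 1.75 (SE 0.17, adjusted p = 4.89e-07). Diaph3 had again the smallest p, at 6.91, 8.07 and 7.45 CPM and 21.7, 19.4 and 16.2 CPM, a log2 fold change of 1.35 (SE 0.13, adjusted p = 4.86e-07). Pbk, a mitotic kinase gene, had a log2 fold change of 1.56 (SE 0.26, adjusted p = 0.000179).

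The exceptions in CD11c-negative macrophages overlapped between diets. Cenpa stood at 62.6, 44.5 and 39.8 CPM in lean and 63.2, 62.1 and 64.7 CPM in obese libraries, a log2 fold change of 0.37 (SE 0.18, adjusted p = 0.124), and without lean replicate 1 it was 0.60 (adjusted p = 0.0274). Ttk, at low levels of 0.593, 1.04 and 2.19 CPM and 2.48, 2.01 and 2.32 CPM, had a log2 fold change of 0.84 (SE 0.36, adjusted p = 0.0739). Lean replicate 3 held the high lean value, and without it the log2 fold change was 1.49 (adjusted p = 0.00636). Espl1 had a log2 fold change of 0.19 (SE 0.21, adjusted p = 0.508) and Kif23 one of 0.20 (SE 0.23, adjusted p = 0.534).

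The diet effects of the 2 macrophage populations were compared directly by their difference (interaction) in the same fit. Of the 42 genes 0 were called, and 0% of all tested genes were called lower. DESeq2 and limma voom also called 0 of the 42, and 16 had an unadjusted edgeR p under 0.05, all with a smaller rise in CD11c-negative macrophages. The median difference was −0.49 on the log2 scale, against −0.04 over all tested genes, and 39 of 42 differences were below 0, those above it being Ncapg, Cenpa and Espl1. A difference of diet effects between these populations was therefore not detectable gene by gene in this design.

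**Figure D3:**
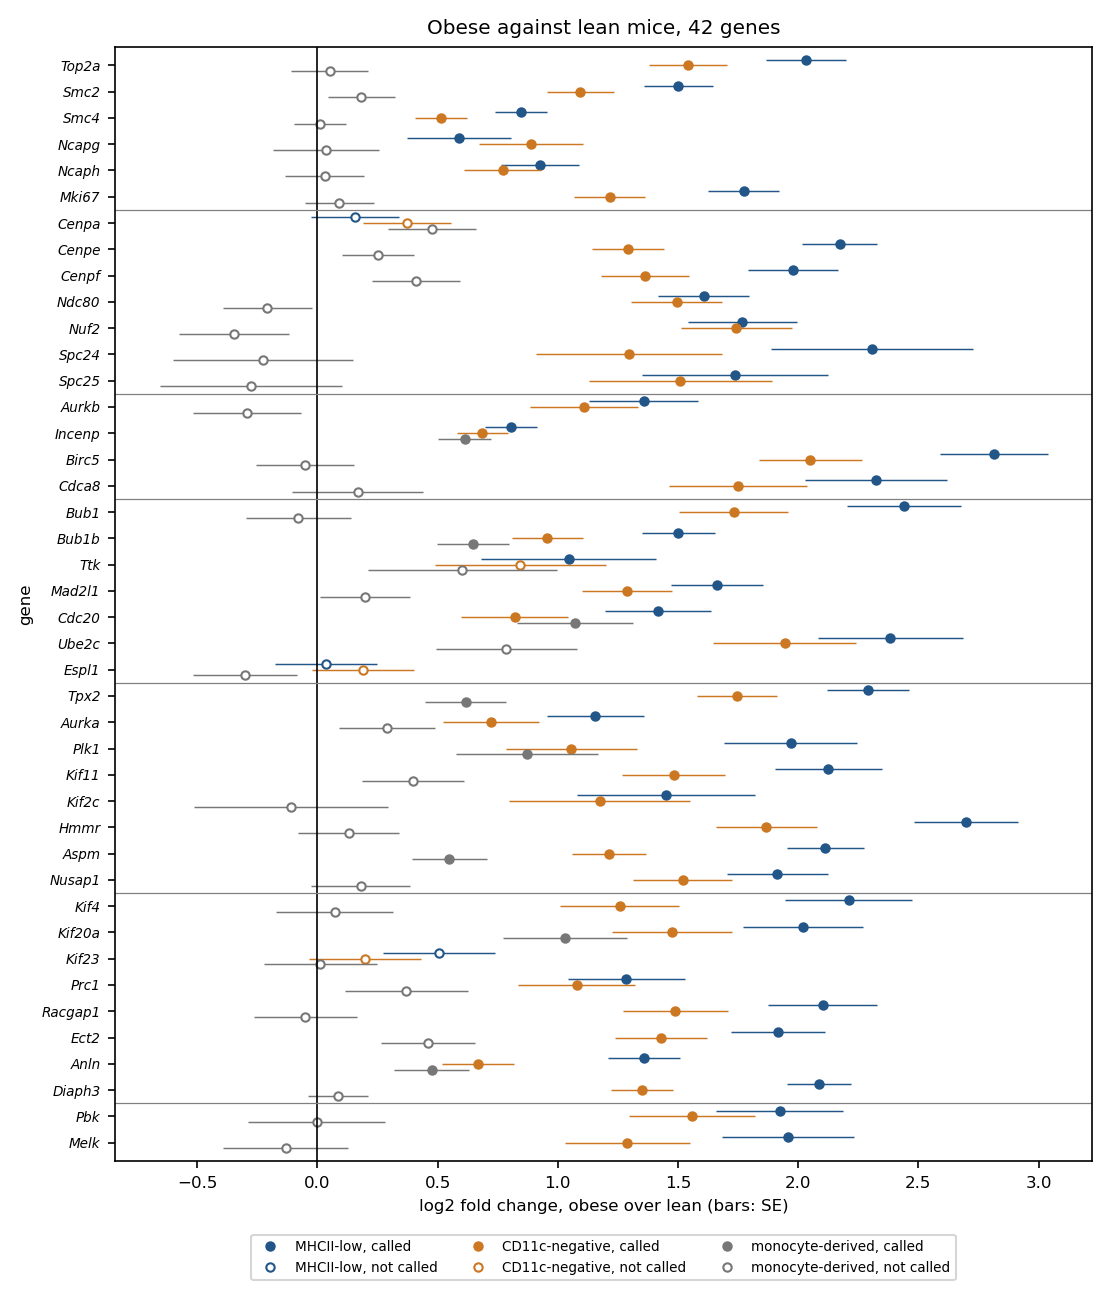
Log2 fold change of obese over lean mice for each of the 42 genes in MHCII-low and CD11c-negative macrophages and in monocyte-derived cells, with bars of 1 standard error; filled points passed an adjusted p under 0.05. The MHCII-low points lie farthest right for most genes, and the monocyte-derived points lie around 0, between −0.35 and 1.07.

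In monocyte-derived cells fewer of the genes changed with diet. Of the 42 genes 8 were called higher in obese mice and 0 lower, where 7.44% of all tested genes were called higher and 9.76% lower. The median log2 fold change was 0.15, against −0.05 over all tested genes, and the obese libraries lay above the lean ones without overlap for 13 of the 42 and for 13.4% of all genes. The 8 were Incenp, Bub1b, Cdc20, Tpx2, Plk1, Aspm, Kif20a and Anln. Limma voom with group weights called 1 of the 42, a fit to these 6 libraries alone called 0, and edgeR without lean replicate 3, the library of lowest depth, called 5.

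Incenp stood at 19.4, 23.6 and 18.3 CPM in lean and 30.7, 29.9 and 33.7 CPM in obese monocyte-derived libraries, a log2 fold change of 0.61 (SE 0.11, adjusted p = 0.00115). Cdc20 stood at 1.21, 1.64 and 1.61 CPM and 2.97, 2.72 and 3.71 CPM, a log2 fold change of 1.07 (SE 0.24, adjusted p = 0.00654). Kif20a, the kinesin that brings the passenger complex to the central spindle, stood at 1.27, 3.95 and 2.12 CPM and 5.22, 5.02 and 5.10 CPM, a log2 fold change of 1.03 (SE 0.26, adjusted p = 0.0119). In these 3 genes all lean values lay below the obese ones. Tpx2 had a log2 fold change of 0.62 (SE 0.17, adjusted p = 0.0181). By contrast, Top2a stood at 54.3, 50.4 and 55.2 CPM and 57.0, 51.7 and 57.6 CPM, and Birc5 at 5.81, 6.17 and 5.18 CPM and 5.98, 4.61 and 6.07 CPM, with log2 fold changes of 0.05 and −0.05 that were not called.

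The diet effect in monocyte-derived cells was smaller than in MHCII-low macrophages for 30 of the 42 genes (called lower) and larger for 0, where 2.43% of all tested genes were called lower. The median difference of diet effects was −1.58 on the log2 scale, against −0.05 over all tested genes. The difference was −2.87 (SE 0.30, adjusted p = 2.87e-05) for Birc5 and −2.57 (SE 0.30, adjusted p = 3.18e-05) for Hmmr. Against CD11c-negative macrophages, 23 of the 42 were called lower and 0 higher, where 2.51% of all tested genes were called lower, with a median difference of −1.09. The difference was −2.10 (SE 0.30, adjusted p = 0.000382) for Birc5 and −2.09 (SE 0.32, adjusted p = 0.000819) for Nuf2, the partner of Ndc80. The 12 genes without a called difference from MHCII-low macrophages were Ncapg, Cenpa, Incenp, Ttk, Cdc20, Espl1, Aurka, Plk1, Kif2c, Kif20a, Kif23 and Prc1. Limma voom called 18 and 9 genes in the 2 contrasts. In the second, 11 genes were called without obese CD11c-negative replicate 1 (the highest of that group for 36 of the 42), without its replicate 2 or without obese monocyte-derived replicate 2, 14 without lean CD11c-negative replicate 3 and 15 without obese monocyte-derived replicate 3.

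Markers of other cells moved with diet as well. Of 10 fibroblast and preadipocyte markers, 4 were called higher and 1 lower in obese MHCII-low macrophages, 4 and 0 in CD11c-negative macrophages and 5 and 0 in monocyte-derived cells. Their summed level was 685 to 902 CPM in lean and 981 to 2232 CPM in obese MHCII-low libraries, 589 to 810.0 and 986 to 2358 CPM in CD11c-negative libraries and 229 to 335 and 580.2 to 1719.5 CPM in monocyte-derived libraries. Obese replicate 2 was the highest for this sum in all 4 obese groups, while the summed mitosis genes were highest in replicate 1 of obese MHCII-low, CD11c-negative and monocyte-derived cells and in replicate 2 of CD11c-positive macrophages. Of 12 T and NK cell markers, 8 were called lower in obese MHCII-low macrophages, their sum going from 17.4 to 25.7 CPM to 5.79 to 9.37 CPM. In CD11c-negative macrophages 4 of these 12 were called lower, from 14.5 to 17.0 CPM to 4.89 to 6.67 CPM. The sum of dendritic cell markers was also lower on average in obese mice, with 4 of 12 called lower in MHCII-low macrophages (360.2 to 435 CPM in lean and 132 to 219 CPM in obese libraries), 5 in CD11c-negative macrophages (299 to 368 and 79.7 to 112 CPM) and 3 in monocyte-derived cells (878 to 1780.0 and 573 to 1151 CPM). Irf4 alone averaged 268 CPM in lean and 104 CPM in obese MHCII-low libraries, and 226 and 52.6 CPM in CD11c-negative libraries. The mean was not lower in obese mice for Fscn1 in MHCII-low and for Flt3 and Clec9a in CD11c-negative macrophages. The sum in macrophages is therefore mostly a reading of Irf4. Of 6 mesothelial markers 4, 2 and 0 were called lower, with sums of 29.2 to 50.3 and 9.81 to 19.9 CPM in MHCII-low and 25.2 to 37.8 and 9.95 to 26.0 CPM in CD11c-negative libraries. Of 8 adipocyte markers 5, 4 and 1 were called lower and 1 higher in each, and of 8 endothelial markers 0 were called in any of the 3. None of the markers of these 6 lists was at 0 throughout a group, and their part in the differences of the mitosis genes was not tested.

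**Figure D4:**
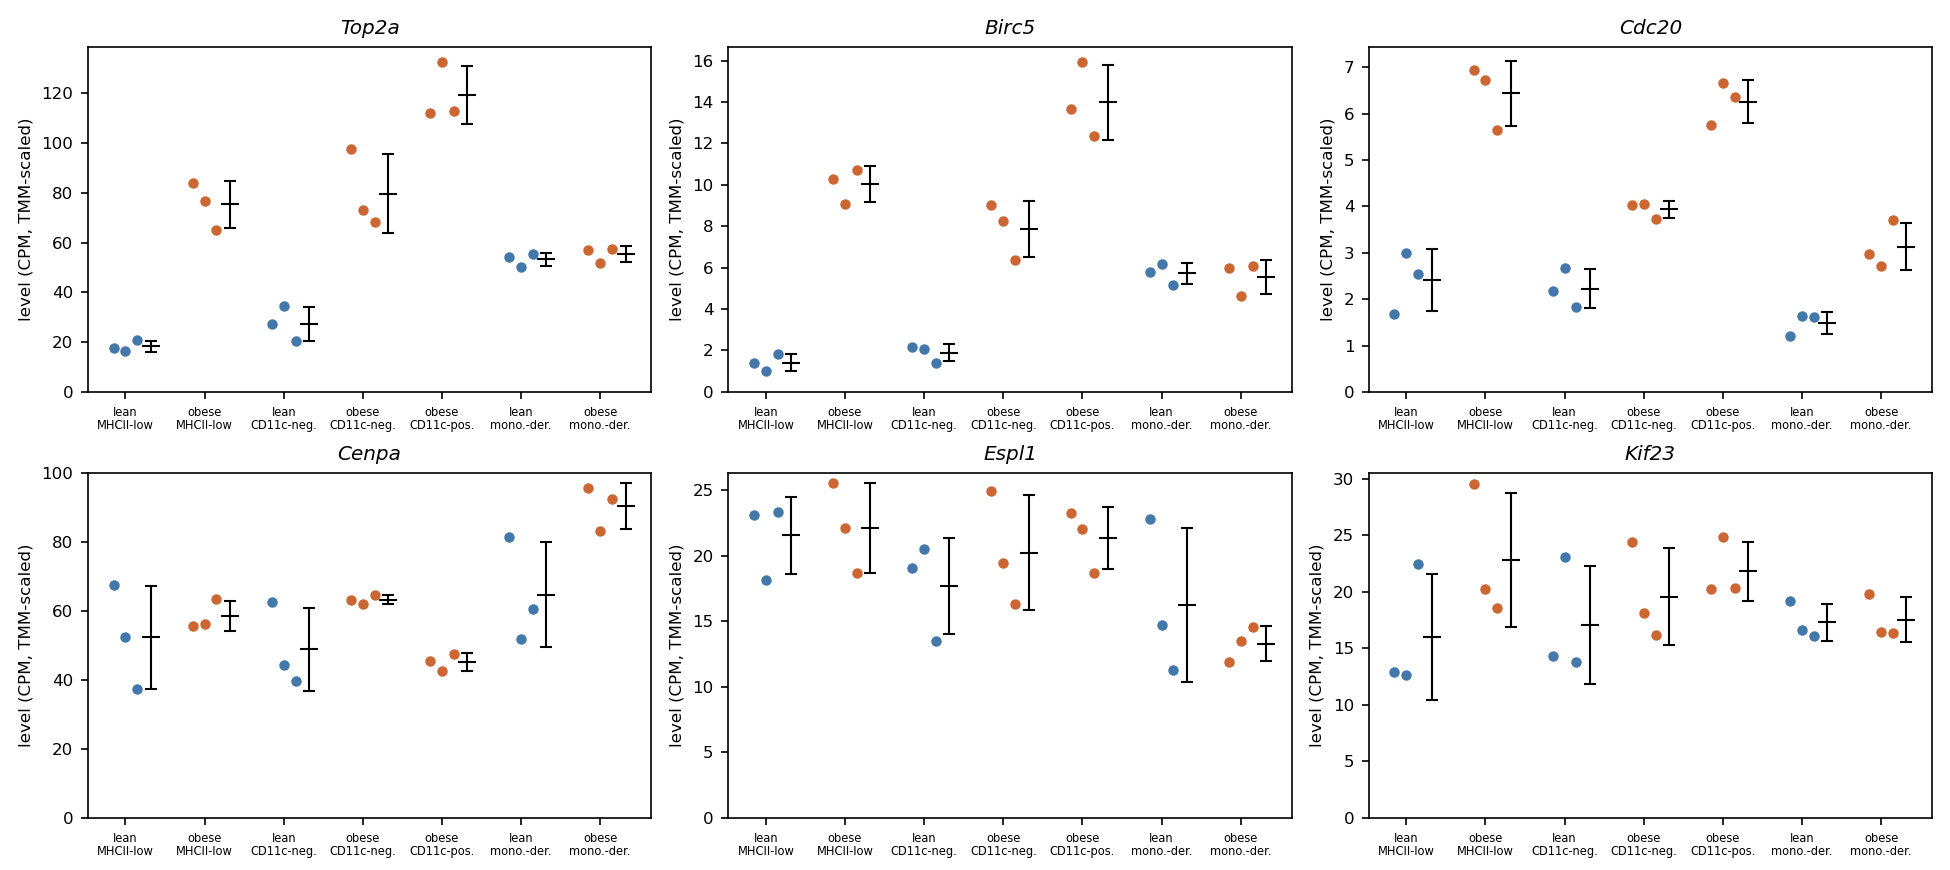
Level of 6 genes in TMM-scaled CPM by group, with points for libraries (blue lean, orange obese) and black marks for the mean ± SD of 3 libraries. Top2a, Birc5 and Cdc20 are higher in every obese macrophage library than in the lean ones, whereas Cenpa, Espl1 and Kif23 overlap between diets in the macrophages. Cenpa is highest in obese monocyte-derived cells, where it does not overlap with the lean ones.

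Within obese mice, CD11c-positive macrophages carried the highest levels. Against CD11c-negative macrophages 17 of the 42 genes were called higher and 0 lower, where 1.38% of all tested genes were called higher. Their median log2 fold change was 0.64, against −0.03 over all tested genes, and the libraries of CD11c-positive cells lay above those of CD11c-negative cells without overlap for 36 of the 42, as for 18.5% of all genes. By role the 17 were Top2a and Smc2 (chromosome structure), Cenpe and Ndc80 (kinetochore), Incenp and Birc5 (passenger complex), Bub1, Bub1b and Mad2l1 (checkpoint), Tpx2, Aurka, Plk1, Hmmr and Aspm (spindle), and Kif20a, Anln and Diaph3 (cytokinesis). Kif20a stood at 6.96, 6.79 and 6.28 CPM in CD11c-negative and 12.5, 16.2 and 14.6 CPM in CD11c-positive libraries, a log2 fold change of 1.11 (SE 0.23, adjusted p = 0.0118). Plk1, the Polo-like kinase of mitotic entry and exit, stood at 3.50, 3.79 and 3.35 CPM and 6.22, 8.14 and 6.67 CPM, a log2 fold change of 0.98 (SE 0.26, adjusted p = 0.0360). Markers of 2 other kinds of cells were also high in this group: 8 endothelial markers summed to 121 to 182 CPM in CD11c-positive, 60.3 to 117 CPM in CD11c-negative and 36.3 to 76.6 CPM in MHCII-low libraries, with 0 of 8 called against CD11c-negative and 5 called higher against MHCII-low macrophages. The 8 adipocyte markers, mostly Fabp4, which macrophages express too, summed to 173 to 196, 99.1 to 145 and 41.72 to 78.7 CPM, with 0 and 1 called higher. The part of these cells in the differences was not tested.

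The size of this count depended on the fit. Obese replicates with the same number deviated together. Description numbers within diet, used as a block, gave 30 genes called higher, all 17 among them, and 1 lower. That block called 4.86% of all tested genes higher. Title numbers as the block gave 19 higher, all 17 among them, and 0 lower, and called 1.77% of all tested genes higher. DESeq2 called 30 and limma voom 37. With 1 library left out the count was 0 without CD11c-negative replicate 3 or CD11c-positive replicate 2, 2 without CD11c-positive replicate 3, 4 without CD11c-negative replicate 2 and 9 without replicate 1 of either group. The filter on low counts was run again in each of these fits, so the tested genes could differ as well, and its part in the drops was not tested. Without CD11c-negative replicate 1, Kif20a was not called although its log2 fold change was larger, at 1.175 (adjusted p = 0.0716).

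Against MHCII-low macrophages, CD11c-positive macrophages had 12 of the 42 genes called higher and 0 lower, where 5.89% of all tested genes were called higher. The median log2 fold change was 0.50, against −0.01 over all tested genes. There was no overlap, with CD11c-positive higher, for 36 of the 42 genes and for 21.7% of all genes. Melk, a kinase gene of cycling cells, stood at 5.84, 4.80 and 4.93 CPM in MHCII-low and 10.04, 10.5 and 7.54 CPM in CD11c-positive libraries, a log2 fold change of 0.85 (SE 0.24, adjusted p = 0.0230). Ndc80 stood at 9.14, 6.76 and 7.13 CPM and 12.3, 13.2 and 13.1 CPM, a log2 fold change of 0.74 (SE 0.18, adjusted p = 0.00658). Cdc20 did not share the pattern, at 6.95, 6.73 and 5.64 CPM in MHCII-low and 5.75, 6.67 and 6.35 CPM in CD11c-positive libraries. With the block of description numbers 23 genes were called higher, all 12 among them, and 1 lower, where the block called 10.5% of all tested genes higher. The block of title numbers gave 14 higher, all 12 among them, and 0 lower, and called 6.34% of all tested genes higher. With 1 library left out the count was 3 without CD11c-positive replicate 2, 6 without its replicate 3 or MHCII-low replicate 1, 7 without MHCII-low replicate 3 and up to 9 otherwise.

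Cenpa was the exception in CD11c-positive macrophages. Its levels were 45.7, 42.5 and 47.5 CPM there, 55.6, 56.4 and 63.5 CPM in MHCII-low and 63.2, 62.1 and 64.7 CPM in CD11c-negative macrophages. All 3 CD11c-positive libraries were below all 6 of the others, and the log2 fold changes of −0.37 and −0.49 were not called in the fit of all 7 groups without the block. The block of description numbers called 1 of the 42 genes lower in each of these comparisons, and that of title numbers 0. Without a block, limma voom called 1 lower against CD11c-negative macrophages, and the fit to only the compared libraries called 1 lower in each.

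CD11c-negative and MHCII-low macrophages of obese mice differed in few of the genes. Of the 42 genes 0 were called higher and 1 lower in CD11c-negative cells, where 1.85% of all tested genes were called lower, and the median log2 fold change was −0.13, against −0.003 over all tested genes. The CD11c-negative libraries lay below without overlap for 7 of the 42 and for 13.2% of all genes. The 1 called gene was Hmmr, at 14.2, 15.6 and 14.0 CPM in MHCII-low and 10.1, 8.57 and 8.07 CPM in CD11c-negative libraries, a log2 fold change of −0.71 (SE 0.19, adjusted p = 0.0493). It was not called with any 1 of the 6 libraries left out. With the block of description numbers 4 genes were called lower, Hmmr among them, where the block called 3.27% of all tested genes lower. With the block of title numbers 1 was called lower, again Hmmr, where 2.09% of all tested genes were.

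**Figure D5:**
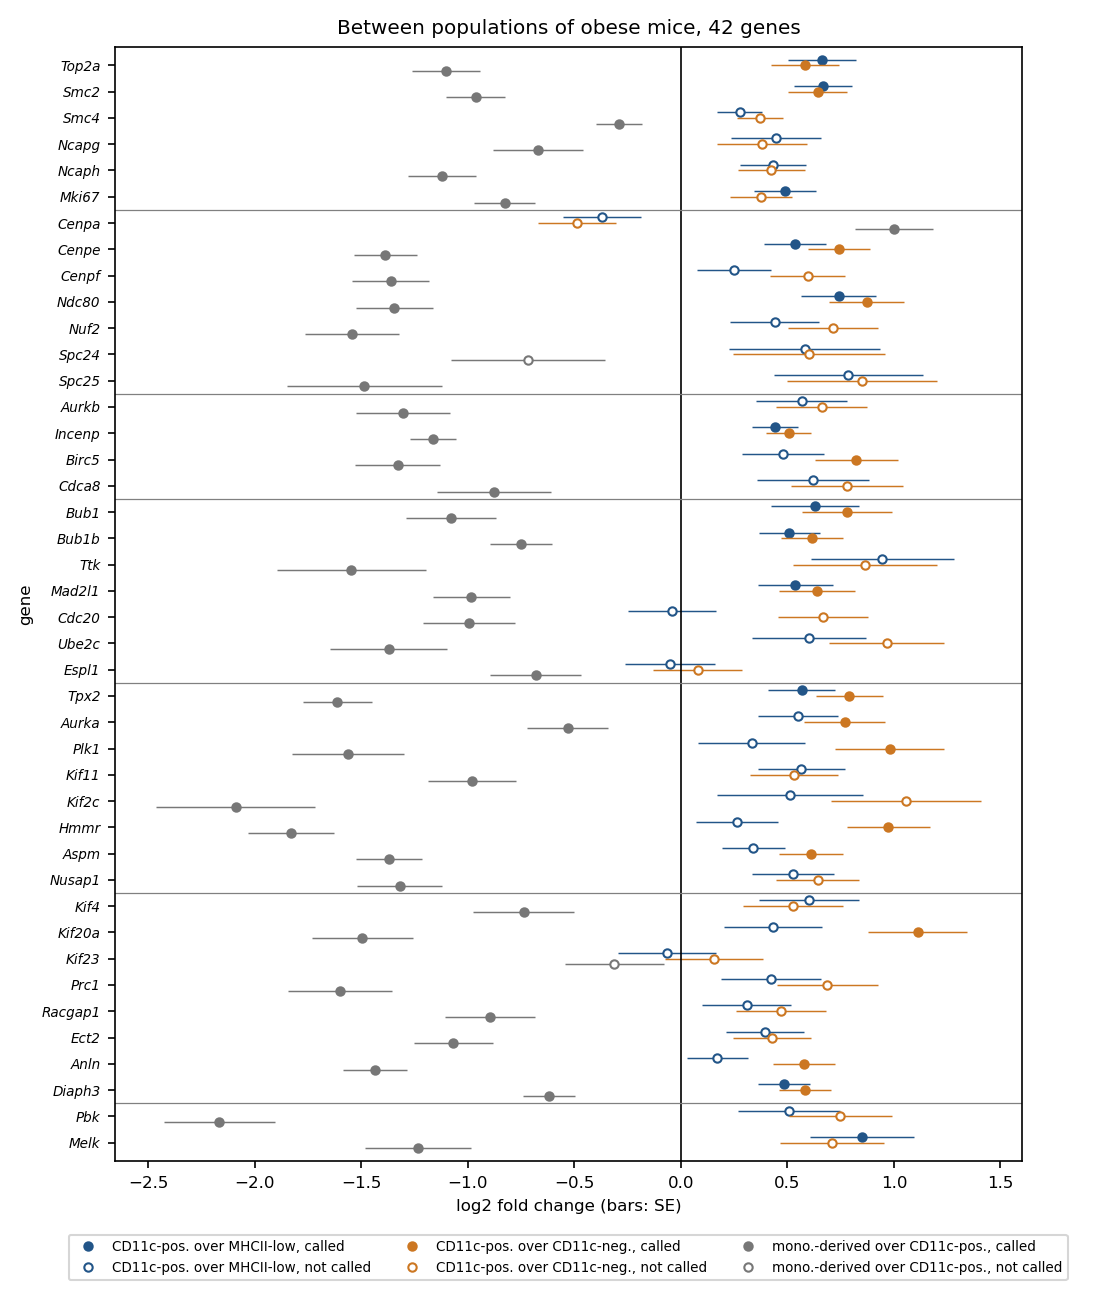
Log2 fold change between populations of obese mice for each of the 42 genes, with bars of 1 standard error; filled points passed an adjusted p under 0.05. CD11c-positive macrophages are right of 0 against both other macrophage populations for 38 and 41 of 42 genes, and monocyte-derived cells are left of 0 against CD11c-positive macrophages for 41 of 42, with Cenpa on the other side.

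Obese monocyte-derived cells had lower levels than each obese macrophage population. Against CD11c-positive macrophages 39 of the 42 genes were called lower and 1 higher, where 19.4% of all tested genes were called lower and 19.3% higher. Their median log2 fold change was −1.14, against 0.09 over all tested genes (0.20 with library totals alone), and the groups did not overlap, with monocyte-derived cells lower, for 41 of the 42 and for 28.1% of all genes. Spc24 and Kif23 were not called. Pbk stood at 1.41, 1.52 and 1.73 CPM in monocyte-derived and 6.52, 7.84 and 6.60 CPM in CD11c-positive libraries, a log2 fold change of −2.17 (SE 0.26, adjusted p = 2.1e-06). Kif2c, the microtubule depolymerase, stood at 1.18, 1.71 and 1.81 CPM and 5.59, 7.64 and 6.77 CPM, a log2 fold change of −2.09 (SE 0.37, adjusted p = 0.000164). The gene that was higher was Cenpa, at 95.8, 83.2 and 92.5 CPM in monocyte-derived cells, a log2 fold change of 1.00 (SE 0.18, adjusted p = 0.000228).

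Against obese MHCII-low macrophages 24 genes were called lower and 1 higher, where 17.5% of all tested genes were called lower and 15.3% higher, with a median log2 fold change of −0.68. Pbk and Kif2c again fell most, with log2 fold changes of −1.66 (SE 0.26, adjusted p = 3.55e-05) and −1.58 (SE 0.37, adjusted p = 0.00226), and Cenpa rose by 0.63 (SE 0.18, adjusted p = 0.0108). The 17 genes not called included Mki67, Smc2, Smc4, Ncapg, Bub1 and Diaph3, whereas 6 of the 8 spindle assembly genes were among those called lower. Against obese CD11c-negative macrophages 18 genes were called lower and 1 higher, where 12.8% and 11% of all tested genes were, with a median of −0.51. Log2 fold changes were −1.42 (SE 0.26, adjusted p = 0.000357) for Pbk, −1.03 (SE 0.37, adjusted p = 0.0489) for Kif2c and 0.52 (SE 0.18, adjusted p = 0.0443) for Cenpa. Without CD11c-negative replicate 1 or monocyte-derived replicate 2 that count of 18 was 10, and Cenpa was called in only 1 of the 6 fits that left out 1 library, the one without monocyte-derived replicate 2. Kif2c was called in 0 of those 6 fits (adjusted p = 0.0651 to 0.180 in edgeR), and not with DESeq2 size factors (adjusted p = 0.0558) or library totals alone (adjusted p = 0.0735). Macrophage and dendritic cell markers differ between these populations by the sums given above, and their part was not tested.

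In lean mice the monocyte-derived cells had the higher levels. Lean monocyte-derived cells had 27 of the 42 genes called higher and 2 lower than lean MHCII-low macrophages, where 25% of all tested genes were called higher and 21% lower. The median log2 fold change was 0.86, against 0.15 over all tested genes. Bub1 stood at 6.84, 4.10 and 6.46 CPM in monocyte-derived and 1.28, 1.70 and 1.16 CPM in MHCII-low libraries, a log2 fold change of 2.07 (SE 0.24, adjusted p = 5.3e-07). Spc24, an Ndc80 complex subunit at low levels, stood at 1.27, 3.32 and 4.42 CPM and 0.365, 0.582 and 0.732 CPM, a log2 fold change of 2.40 (SE 0.43, adjusted p = 0.000113). The 2 that were lower were Cdc20, with a log2 fold change of −0.69 (SE 0.24, adjusted p = 0.0254), and Incenp, with −0.53 (SE 0.11, adjusted p = 0.000501). Cdc20 was not called by limma voom (adjusted p = 0.276) or in the fit to these libraries alone (adjusted p = 0.223).

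Against lean CD11c-negative macrophages 23 of the 42 genes were called higher and 2 lower in lean monocyte-derived cells, where 23.6% of all tested genes were called higher and 20.1% lower, with a median log2 fold change of 0.59 against 0.14 over all tested genes. Without the filter on low counts these medians were 0.49 and 0.66, so that the listed genes lay below all genes. Birc5 and Bub1 rose most, with log2 fold changes of 1.60 (SE 0.22, adjusted p = 5.65e-06) and 1.51 (SE 0.23, adjusted p = 2.3e-05). Anln stood at 7.65, 7.999 and 5.78 CPM in monocyte-derived and 11.3, 12.9 and 10.1 CPM in CD11c-negative libraries, a log2 fold change of −0.66 (SE 0.15, adjusted p = 0.00176), and Incenp had one of −0.58 (SE 0.11, adjusted p = 0.000239). Limma voom called 11 of the 42 higher and the fit to these 6 libraries alone 12. Receptor background was highest in the lean monocyte-derived libraries, at the sums given above, and its part in these counts was not tested.

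Lean CD11c-negative and MHCII-low macrophages differed in 3 of the 42 genes, all higher in CD11c-negative cells, where 1.05% of all tested genes were called higher, and the median log2 fold change was 0.27 against −0.01. They were Mki67, Cenpe and Diaph3. Mki67 stood at 126, 159.5 and 125 CPM in CD11c-negative and 71.9, 89.0 and 97.1 CPM in MHCII-low libraries, a log2 fold change of 0.67 (SE 0.15, adjusted p = 0.0188), and Cenpe had one of 0.67 (SE 0.16, adjusted p = 0.0286). Cenpe was not called with DESeq2 size factors (adjusted p = 0.0503), library totals alone (0.0740), no filter (0.0545), limma voom (0.103), only the compared libraries (0.0626) or description numbers as a block (0.0813), nor in 5 of the 6 fits that left out 1 library. It was called by DESeq2 and with title numbers as a block. The count was 0 without MHCII-low replicate 1, MHCII-low replicate 2 or CD11c-negative replicate 2, and 1 without CD11c-negative replicate 3.

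Other genes of the same machinery, from lists that hold none of the 42, were read from the same fit. Of 30 further spindle and cytokinesis genes 27 were called higher in obese MHCII-low, 26 in obese CD11c-negative and 1 in obese monocyte-derived cells. Cep55, which recruits the abscission machinery to the midbody, stood at 1.55 ± 0.396 CPM (SD, n = 3) in lean and 6.46 ± 0.498 CPM in obese MHCII-low libraries, a log2 fold change of 2.05 (SE 0.23, adjusted p = 2.41e-06), and the spindle protein gene Spag5 had one of 1.87 (SE 0.21, adjusted p = 2.69e-06). Of 35 further kinetochore and checkpoint genes 21, 16 and 1 were called higher in the 3 cell types and 0 lower. Kntc1, a subunit of the complex that brings dynein to kinetochores, had a log2 fold change of 2.08 (SE 0.27, adjusted p = 1.46e-05) in MHCII-low macrophages. Of 11 mitotic cyclin and Cdk1 genes 9, 9 and 2 were called higher. Ccna2 (cyclin A2) stood at 3.26 ± 0.839 CPM in lean and 16.8 ± 0.958 CPM in obese MHCII-low libraries, a log2 fold change of 2.36 (SE 0.19, adjusted p = 6.76e-08), and Ccnb1 (cyclin B1) had 2.25 (SE 0.20, adjusted p = 2.07e-07).

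Large complexes with subunits that are used outside mitosis as well had smaller medians. Of 16 anaphase promoting complex genes 9, 9 and 3 were called higher and 0, 1 and 0 lower, with medians of 0.46, 0.55 and 0.23 on the log2 scale. Anapc1 stood at 63.0 ± 9.02 CPM in lean and 101 ± 5.67 CPM in obese MHCII-low libraries, a log2 fold change of 0.68 (SE 0.11, adjusted p = 0.000125). Of 14 further condensin and cohesin genes 6, 6 and 2 were called higher, with medians of 0.23, 0.15 and 0.15. Ncapd2, a condensin I subunit, had a log2 fold change of 1.68 (SE 0.18, adjusted p = 2.22e-06) in MHCII-low macrophages and the condensin II subunit gene Ncaph2 one of 0.60 (SE 0.10, adjusted p = 0.000131). Of 18 regulators of mitotic transcription 8, 10 and 0 were called higher and 2, 2 and 0 lower. E2f8, a repressor made in S phase, had the highest of these values, 2.43 (SE 0.29, adjusted p = 5.35e-06) in MHCII-low and 2.25 (SE 0.27, adjusted p = 6.46e-06) in CD11c-negative macrophages.

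DNA replication genes, which act before mitosis, gave a point of comparison. Of 30 such genes 21, 19 and 5 were called higher with diet in MHCII-low, CD11c-negative and monocyte-derived cells, and 1 lower in each, with medians of 0.81, 0.78 and 0.18. Mcm6, a subunit of the replicative helicase, stood at 19.8 ± 2.92 CPM in lean and 61.1 ± 8.29 CPM in obese MHCII-low libraries, a log2 fold change of 1.62 (SE 0.13, adjusted p = 6.9e-08). The ratio of the summed mitosis genes to the summed replication genes was 0.745 to 0.901 in the 6 lean macrophage libraries, 1.22 to 1.57 in the 9 obese macrophage libraries and 1.11 to 1.25 in the 6 monocyte-derived libraries. The ratio was 1.57, 1.48 and 1.48 in obese MHCII-low, 1.38, 1.30 and 1.22 in obese CD11c-negative and 1.34, 1.49 and 1.38 in obese CD11c-positive macrophages, so that of CD11c-positive cells, which had the highest mitosis sum, overlapped those of the other 2. Without Mki67 the 3 groups no longer overlapped, at 1.13, 1.06 and 1.05 in MHCII-low, 0.953, 1.04 and 0.972 in CD11c-positive and 0.949, 0.886 and 0.827 in CD11c-negative libraries. It was then 0.533 to 0.665 in lean macrophages and 0.760 to 0.856 in monocyte-derived cells. The ratio was not tested.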

How the data were processed

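RNA-seq libraries of sorted adipose tissue myeloid cells (21 libraries, 7 groups of 3) were analysed from the table of counts of reads per gene that the authors deposited, with no normalization. Per the submitters' processing notes the tools were bcl2fastq, STAR 2.6.0a, Trim Galore 0.4.5 and the featureCounts program of Subread 1.4.6-p5, on GRCm38; annotation and strand setting are not given in the sources used here. Gene identifiers were matched to GENCODE M21 (54409 of 54532 without version), from which exon lengths were taken. The totals of 11245851 to 35568948 counts per library set the counting error, which leaves out PCR duplication, since duplicate reads are not independent.

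Genes were filtered with filterByExpr and scaled by TMM (factors 0.941 to 1.09). A quasi-likelihood model of edgeR 4.0.16 (R 4.3.3) with 7 group means and 14 residual degrees of freedom was fitted to 22935 genes, with a common dispersion of 0.0502. Tests were 2-sided, adjusted by Benjamini-Hochberg over all tested genes and called at an adjusted p under 0.05. Standard errors are those the F statistic implies. The scripts were tested on simulated data. Alternatives were DESeq2 size factors, no TMM, no filter, DESeq2 1.42.0, limma 3.58.1 voom with group weights, only the compared libraries, a replicate block (title numbers, or description numbers within diet) and each library left out. The filter was run again in every fit that used it. Leaving out a library made the smallest group smaller, so that other genes could pass and enter the adjustment of p.

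Replicate numbers in the labels were checked as pairs by the correlation of deviations from group means over 8647 genes. In obese mice it was over 0.1 in all 18 pairs of equal number (0.104 to 0.762). It ranged from −0.695 to 0.213 in pairs of unequal number, with 3 of 36 over 0.1. Deviations within a group sum to 0, so positive equal pairs push the unequal ones down, and the 2 ranges are not independent. Obese numbers were taken to pair the samples on these values, though the labels do not say so. In lean mice 4 of 9 equal pairs by title were over 0.1, against 3 of 18 unequal pairs. By description 5 of 7 equal pairs were (0.0698 to 0.570), against 2 of 20 unequal pairs (−0.384 to 0.614). Whether lean numbers pair the samples was left undecided. They entered only the fits with a replicate block, which were also run on lean comparisons. For diet within a cell type only title numbers were used as a block. Across diets 3 of 36 pairs of equal title number were over 0.1, against 22 of 72 unequal pairs. Title numbers therefore had no visible pairing across diets, and the block says little about pairing in the diet comparisons.

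The members, lists and tests were chosen with earlier results of these data known. Statistics are printed for the called gene of smallest p in each role (diet comparisons; roles with no call have none), the 2 largest rises and falls (other comparisons), exceptions to a count and the 2 called genes of smallest p in each other list, of which 1 gene is not reported here. Mki67, Hmmr and other members are otherwise given by level and fold change, and genes named for the effect of 1 library were chosen after their values were seen.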

Additional observations from a re-analysis of the deposited data

Results flagged for a closer look

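The difference between the diet effects of monocyte-derived cells and MHCII-low macrophages, tested as an interaction in the edgeR fit, was called for 30 of the 42 genes. It reached −2.87 on the log2 scale for Birc5 and −2.57 for Hmmr. The same difference from CD11c-negative macrophages was called for 23 of the 42 genes, at −2.10 for Birc5 and −2.09 for Nuf2. These results are listed because the effect of 1 diet contrast differed between cell types. No cause was tested. Groups of 3 libraries are too small for a check of single libraries that stand far from their group.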

How the results depend on the processing

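The counts for diet in both macrophage populations and for obese monocyte-derived against CD11c-positive cells stayed within 1.5 times of those reported under every alternative run: leaving out 1 library gave 37 to 38 of 42 called higher in MHCII-low macrophages, 36 to 38 in CD11c-negative macrophages and 34 to 37 lower in monocyte-derived than CD11c-positive cells. Limma voom and the fit to only the compared libraries, in that order, called 1 and 0 genes for diet in monocyte-derived cells, 5 and 3 lower in obese CD11c-negative than MHCII-low, 30 and 23 higher in CD11c-positive than MHCII-low, and 37 and 30 higher and 1 and 1 lower in CD11c-positive than CD11c-negative macrophages. In lean monocyte-derived cells they called 1 and 1 lower than MHCII-low and 11 and 12 higher and 1 and 1 lower than CD11c-negative macrophages. In the difference of diet effects between monocyte-derived and CD11c-negative cells they called 9 and 14. Voom called 18 in that between monocyte-derived and MHCII-low cells and 1 for lean CD11c-negative over MHCII-low, and only the compared libraries gave 1 lower in CD11c-positive than MHCII-low cells. DESeq2 called 4 lower (obese CD11c-negative against MHCII-low), 20 and 30 higher (CD11c-positive against MHCII-low and CD11c-negative) and 5 higher (lean CD11c-negative against MHCII-low). Without the filter Hmmr was lost, leaving 0 lower in obese CD11c-negative macrophages. With description numbers within diet as the replicate block, 4 were lower in obese CD11c-negative than MHCII-low, 23 higher and 1 lower in CD11c-positive than MHCII-low, 30 higher and 1 lower in CD11c-positive than CD11c-negative, and 1 lower in lean monocyte-derived than MHCII-low cells. This block moved no other count that it was run on by over 1.5 times, but it was not run for the diet comparison within a cell type. Title numbers as the block moved none. For diet they were the only block run, so pairing by description numbers was not checked there. No share of all tested genes is given for the counts of DESeq2, limma voom, the compared libraries or the fits with a library left out. Whether all genes gained or lost calls alike cannot be read from those counts.

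With 1 library left out, counts ran from 5 to 11 for diet in monocyte-derived cells, were 0 lower in all 6 fits for obese CD11c-negative against MHCII-low, and ran from 3 to 9 and from 0 to 9 higher for CD11c-positive against MHCII-low and CD11c-negative macrophages. They ran from 10 to 15 lower and 0 to 1 higher for obese monocyte-derived against CD11c-negative cells, 0 to 2 higher for lean CD11c-negative against MHCII-low, 1 to 4 lower for lean monocyte-derived against MHCII-low, and 11 to 23 for the difference of diet effects against CD11c-negative cells. The value of Cenpa for diet in MHCII-low macrophages ran from −0.023 (without lean replicate 3) to 0.37 (without lean replicate 1). That of Espl1 turned to −0.036 with DESeq2 size factors, −0.027 without TMM, −0.036 with DESeq2 and −0.046 with only the compared libraries, and ran from −0.062 (without obese replicate 1) to 0.13 (without obese replicate 3). Neither was called in any of these, and the cause was not tested. Of the values of single genes named with statistics, 371 kept direction and side of the threshold over these settings, 22 lost the call and 2 gained it. With 1 library left out, 291 kept it, 45 lost it and 3 gained it. Depth limits what can be read from the rarest genes, the lowest count being 8, for Spc24 in 1 library.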
